A study of Mus musculus with 4 samples.

Results

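A set of 10 genes linked by name to resident macrophages was followed across 4 single-cell libraries of mouse aortic arch: Lyve1, Folr2, Cd163, Mrc1, Stab1, Timd4, Vsig4, Marco, F13a1 and Pf4. They were chosen by name, and all 10 were found among the 31053 genes of the count tables. The cells came from aortic arches with their branches and perivascular tissue, sorted as DAPI-negative, from male mice that entered the study at 3 months of age. Each group was 1 library made from pooled mice: normocholesterolemic Nrf2flox/flox (4 mice), normocholesterolemic Nrf2Cdh5tKO (4 mice), atherosclerotic Nrf2flox/flox (3 mice) and atherosclerotic Nrf2Cdh5tKO (3 mice). Values by library are given in this order throughout. All 4 groups carried floxed Nfe2l2 alleles, the gene of the transcription factor Nrf2, and in the Nrf2Cdh5tKO mice a Cdh5-Cre transgene, active in endothelium and in part of the haematopoietic cells, removes exon 5. The atherosclerotic mice were kept on a high-fat diet for 21 weeks, and the normocholesterolemic mice on a standard diet.

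Most of these genes encode receptors or proteins of clearance. LYVE1 binds hyaluronan, FOLR2 folate, CD163 haptoglobin-haemoglobin complexes and MRC1 mannose-bearing glycoproteins, STAB1 takes up modified lipoproteins and, like TIMD4, binds phosphatidylserine on dying cells, VSIG4 binds complement C3 fragments and MARCO binds bacteria and particles. F13A1 is the A subunit of coagulation factor XIII, and PF4 is a chemokine best known from platelet granules; neither is a receptor, but both transcripts are abundant in resident macrophages. Arterial resident macrophages lie mainly in the adventitia and are named after LYVE1, a protein otherwise known from lymphatic endothelium.

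The libraries held 8512, 3460, 1160 and 2467 cell barcodes, of which 7890, 2972, 1020 and 2266 passed the limits of the study, 14148 in all, with medians of 9200.5 to 14152.5 UMIs per cell. Of these, 1553 were taken as mononuclear phagocytes and split by further markers, none of them among the 10 genes. They held at least 8 of 12 phagocyte marker genes, or fewer if they met the gate of cDC1-like or cDC2-like cells. The largest kind was resident macrophage-like, with 764 cells (381, 197, 50 and 136) that held at least 3 of Maf, Hmox1, Cd209f, Cd209g, Cbr2 and Fcna. The others were cavity macrophage-like (185 cells), AIR macrophage-like (aortic intimal resident, 150), monocyte-like (113), cDC2-like (91) and cDC1-like (38), while 24 cells tied between gates and 188 met none. The gate markers were chosen with results of these same libraries known, so the gates are not independent of them. Among the libraries 30 barcodes occurred more than once, 22 of them in kept cells and 0 in phagocytes, and 1 resident macrophage was called a doublet. Nfe2l2 stood at 166, 307, 186 and 333 UMIs per 1000000 (CPM) in endothelial-like cells, higher in both libraries labelled Nrf2Cdh5tKO. The counts are per gene and do not show which exon a read came from, so the deletion was not checked.

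The genes lie apart in the genome (GRCm38), on chromosomes 1 (Marco), 2 (Mrc1), 5 (Pf4), 6 (Cd163), 7 (Lyve1 and Folr2), 11 (Timd4), 13 (F13a1), 14 (Stab1) and X (Vsig4). The Mrc1 gene spans chr2:14229392-14332057 and holds the microRNA gene Mir511 on its own strand. Stab1, at chr14:31139013-31168641 on the minus strand, overlaps the protein-coding gene Nt5dc2 on the plus strand, and antisense genes overlap Folr2 and F13a1, whose UMIs could be divided with them if strand was not used in counting. Promoters of 9 of the 10 genes were found in a RefSeq table (GRCm38.p6), as 11 windows of the 250 bases before a transcription start. Short motifs were searched on both strands: GAGGAA or TTCCTC, the core bound by the myeloid factor PU.1; TGCTGA or TCAGCA, part of the site bound by MAF factors; and CACGTG, an E-box. The PU.1 core was present in 6 of the 11 windows against 23.3% of 32851 promoters in the table, the MAF motif in 4 of 11 against 16.1%, and the E-box in 0 of 11 against 6.02%. The 4 windows below are shown because they hold most of these matches, in capitals, and belong to genes whose levels are described next: Stab1 with both motifs, 30 and 43 bases before its start, Mrc1 and Vsig4 with the PU.1 core alone, and Timd4 with the MAF motif alone. A match describes the letters only. The windows read 5′ to 3′ on the gene's strand at chr14:31168642-31168891 (Stab1, minus), chr2:14229164-14229413 (Mrc1, plus), chrX:96293439-96293688 (Vsig4, minus) and chr11:46810549-46810798 (Timd4, plus).
Stab1: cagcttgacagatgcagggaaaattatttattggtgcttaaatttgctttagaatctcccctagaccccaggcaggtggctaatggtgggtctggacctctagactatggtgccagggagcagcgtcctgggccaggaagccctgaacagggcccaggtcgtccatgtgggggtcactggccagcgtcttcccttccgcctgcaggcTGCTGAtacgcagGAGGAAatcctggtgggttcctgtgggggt
Mrc1: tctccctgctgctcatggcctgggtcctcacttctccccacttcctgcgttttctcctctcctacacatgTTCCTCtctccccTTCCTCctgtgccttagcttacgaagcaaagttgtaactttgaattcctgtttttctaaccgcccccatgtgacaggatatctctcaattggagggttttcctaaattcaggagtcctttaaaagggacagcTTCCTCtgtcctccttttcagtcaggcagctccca
Vsig4: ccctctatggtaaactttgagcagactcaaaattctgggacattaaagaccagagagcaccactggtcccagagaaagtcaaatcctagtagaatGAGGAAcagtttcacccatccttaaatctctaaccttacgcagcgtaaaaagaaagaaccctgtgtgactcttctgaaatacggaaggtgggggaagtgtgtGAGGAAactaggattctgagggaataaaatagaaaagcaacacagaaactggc
Timd4: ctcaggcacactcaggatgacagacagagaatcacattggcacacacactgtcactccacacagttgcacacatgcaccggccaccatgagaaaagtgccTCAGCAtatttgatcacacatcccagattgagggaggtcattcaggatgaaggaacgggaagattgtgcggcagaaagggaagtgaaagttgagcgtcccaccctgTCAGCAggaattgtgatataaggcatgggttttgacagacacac

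Of the 10 genes, 9 were detected in resident macrophages and 1 was not. Lyve1 stood at 1013.8, 1069.9, 1340.4 and 1125.5 CPM in the 4 libraries, and 89.1% of the 764 cells held at least 1 UMI. Folr2 stood at 1084, 953, 869 and 974 CPM and was found in 94.4% of cells. Both receptors varied little among the libraries, with SDs of 143 and 88.4 CPM over the 4. Cd163, which clears haemoglobin, ranged wider, at 598, 709, 1236 and 982 CPM, with a UMI in 80.6% of cells. Mrc1 reached 1893, 2322.5, 3288 and 1938 CPM and was present in 99.2% of cells, and Stab1 stood at 353, 487, 720 and 386 CPM in 87.0%. For Cd163, Mrc1 and Stab1 the highest value was that of the atherosclerotic Nrf2flox/flox library, which held 50 resident macrophages. F13a1 was found in 98.7% of cells, at 1496, 2237, 2146 and 1698 CPM. Pf4 was found in 99.5%, at 5025, 2890.2, 3050.5 and 3967 CPM, so that here the normocholesterolemic Nrf2flox/flox library was highest. As shares of all UMIs of a gene in the kept cells, between 61.9% (Pf4) and 77.7% (Lyve1) lay in resident macrophages, which were 5.40% of those cells.

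The phosphatidylserine receptor Timd4 and the complement receptor Vsig4 were held by fewer resident macrophages. Timd4 stood at 135, 154, 193 and 163 CPM with a UMI in 50.9% of cells, and the 77 cells richest in it held 45.2% of its UMIs. Vsig4 stood at 42.4, 74.9, 57.9 and 79.9 CPM, but only 92 of 764 cells (12%) held it, with up to 29 UMIs in 1 cell, and the richest 77 held 96.2%. For comparison, the 77 richest cells held 23.7% of the Mrc1 UMIs. With each cell thinned to 5000 UMIs, which left out 116 shallower cells, the share was 38.7% for Timd4 and 9.72% for Vsig4. The scavenger receptor Marco had 0 UMIs in the 764 cells, which allows up to 0.393% of cells and 0.426 CPM, and 1 UMI in all 14148 kept cells, in an AIR macrophage-like cell. Intervals and limits given here cover counting error only.

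Against all other phagocytes, the 9 detected genes were higher in resident macrophages. UMIs were summed by library for resident macrophages and for the other phagocytes (4 against 4) and compared with edgeR's quasi-likelihood test, with the library as a block. All 9 genes that could be tested were called higher, while 17.5% of the 8587 genes tested were called higher and 18.6% lower (Benjamini-Hochberg adjusted p under 0.05), and Marco did not pass the filter on low counts. DESeq2 also called the 9 higher, against 7.78% of the 12336 genes it tested, with 11.3% lower. Their median log2 fold was 2.47, where that of all tested genes was 0.016. Lyve1 was at 79.3, 151, 25.7 and 55.5 CPM in the other phagocytes, below its level in resident macrophages in all 4 libraries (log2 fold 3.85, SE 0.33, edgeR adjusted p = 2.4e-06). Folr2 (log2 fold 3.27, SE 0.27) and Vsig4 (3.22, SE 0.43, edgeR adjusted p = 9.2e-05) followed. Stab1 (2.48, SE 0.21), Cd163 (2.47, SE 0.23), Timd4 (2.20, SE 0.25), Mrc1 (2.02, SE 0.21), F13a1 (1.97, SE 0.16) and Pf4 (1.95, SE 0.24) had lower folds. The 4 libraries come from different pools with different treatments, and p-values measure the spread between these pools, not between mice. Members and gates were chosen with earlier results of these data known, so the 9 calls are not an independent test.

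**Figure D1:**
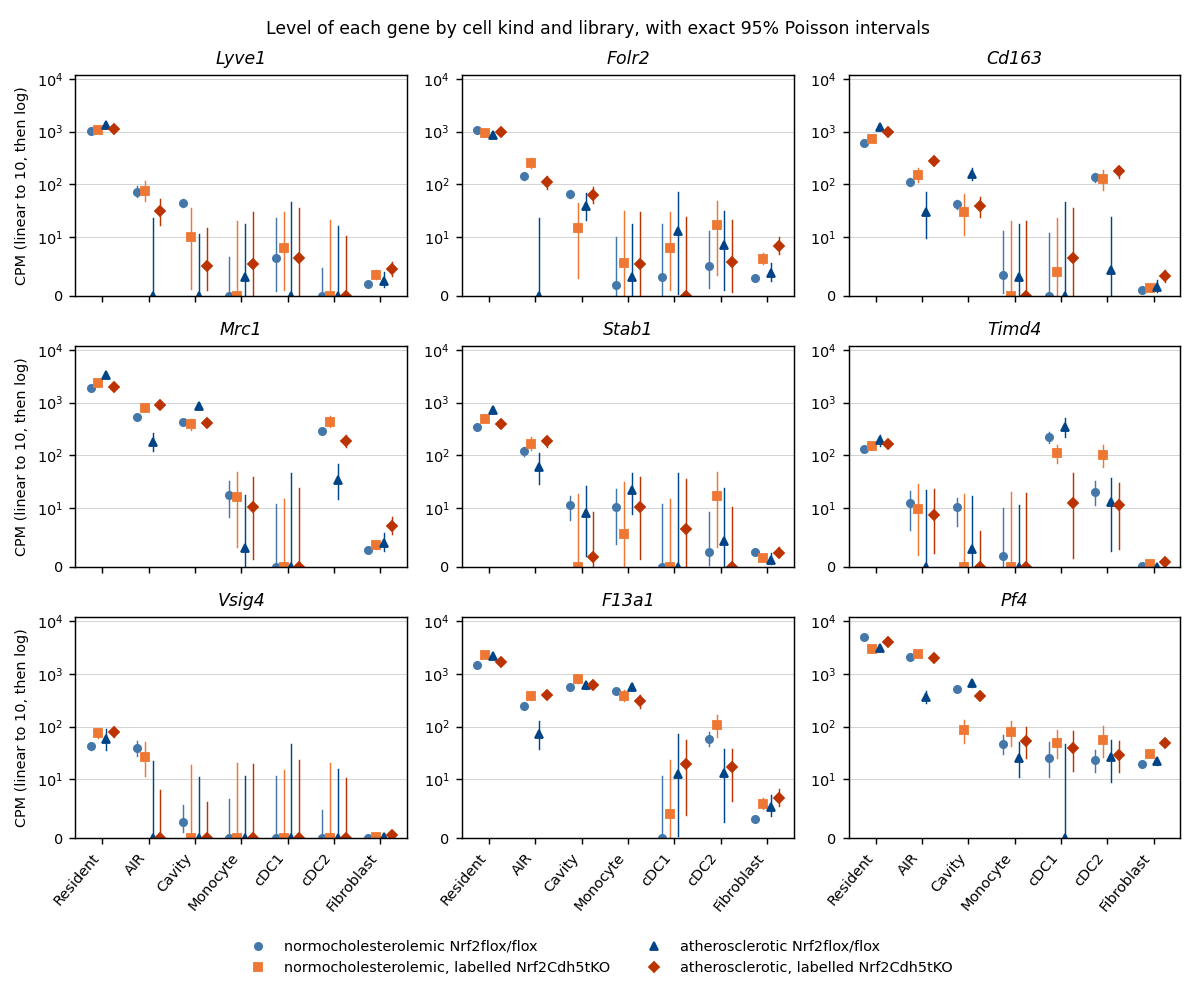
Level of 9 genes in CPM (y axis, linear to 10 and logarithmic above) by cell kind (x axis), with 1 point per library and bars for the exact 95% Poisson interval. Among the kinds shown, resident macrophages are highest for every gene except Timd4, which is as high in cDC1-like cells, and fibroblast-like cells show the background. Cells of tied gates or of no gate are not shown.

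The kinds differed in which of the genes they held. AIR macrophage-like cells are named after lipid-handling macrophages of the intima, but their place in the tissue was not tested. Their 5 proinflammatory macrophage markers summed to 2931 CPM, against 1854 in resident macrophages. In AIR macrophage-like cells Pf4 was at 1921 CPM, Mrc1 at 632, Cd163 at 151, Folr2 at 140 and Stab1 at 138. The 13 such cells of the atherosclerotic Nrf2flox/flox library had the lowest or joint lowest level of all 9 genes, with 0 UMIs of Lyve1 and Folr2 among 163554, and Pf4 at 361 CPM against 1972 to 2321 in the other libraries. Cavity macrophage-like cells, which share markers with macrophages of the serous cavities, held F13a1 at 578 CPM, Pf4 at 482 and Mrc1 at 460 but Stab1 at 9.26. In monocyte-like cells F13a1 stood at 454 CPM (464, 388, 566 and 301), monocytes being a known source of factor XIII A, while Mrc1 was at 12.9 CPM, Lyve1 at 1.61 and Vsig4 had 0 UMIs in 113 cells. The lowest library value in resident macrophages lay above the highest in each of these 5 kinds for 8 of the 9 genes, narrowly so for Vsig4 (42.4 against 39.1 CPM in AIR macrophage-like cells, with overlapping intervals). Cells of tied gates are not among these kinds. In the 14 such cells of the normocholesterolemic Nrf2flox/flox library Pf4 was at 5342 CPM, against 5025 in its resident macrophages.

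Timd4 was the exception. In cDC1-like cells, dendritic cells specialised in taking up dead cells and presenting their antigens to CD8 T cells, it stood at 221, 111, 346 and 12.9 CPM, in 17 of 38 cells and with up to 19 UMIs in 1 cell. Over the libraries this was 158 CPM (95% interval 132 to 189), and the resident macrophages, at 147 CPM (138 to 156), lay within that interval. The 38 cells had 0 UMIs of Mrc1 and of Vsig4, 5 of Lyve1, 4 of Folr2, 2 of Cd163 and 1 of Stab1, against 125 of Timd4, and none was called a doublet. The spread was wide and the library labelled atherosclerotic Nrf2Cdh5tKO, with 7 cells, had 2 UMIs. In cDC2-like cells Timd4 was at 26.8 CPM, but Mrc1 reached 247 CPM and Cd163 123 CPM. These levels were 291, 438, 34.9 and 190.3 CPM for Mrc1 and 135, 124, 4.36 and 176 for Cd163, so that in both the atherosclerotic Nrf2flox/flox library was lowest.

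Levels also followed the number of the 6 resident markers that a phagocyte held. With 0, 1 and 2 markers Lyve1 stood at 4.91, 13.5 and 105 CPM, and with 3, 4, 5 and 6 markers at 557, 1042, 1234 and 1428 CPM, in 152 to 362 cells or, for the last 2 steps, 106 and 113. Pf4 went from 84.5 CPM with 0 markers to 914 with 2 and 3718 with 3, then stayed between 4181 and 4591. Timd4 did not follow this order at the low end, with 54.5 CPM in cells with 0 markers and 13.1 in those with 2; cDC1-like cells, where Timd4 was found, had 3 of the 6 markers at 0. Vsig4 was at 45.8 CPM with 3 markers and 43.8 with 6, so it was no higher with 6 markers than with 3. The median depth of these classes ran from 12643 UMIs with 0 markers to 8083.5 with 5 and 11034 with 6.

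**Figure D2:**
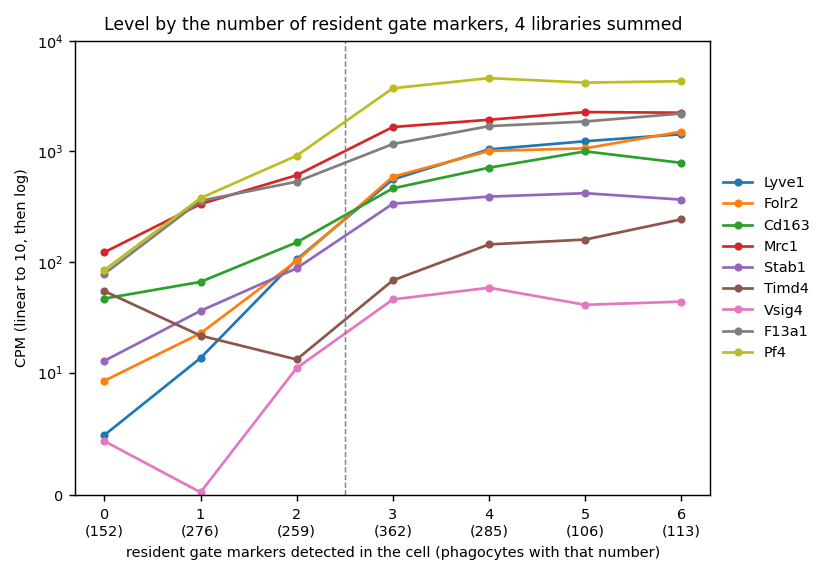
Level of 9 genes in CPM (y axis, linear to 10 and logarithmic above) by the number of resident gate markers detected in a phagocyte (x axis, number of cells in brackets), 4 libraries summed. The dashed line marks the minimum of 3 resident markers. Some cells beyond it were tied or placed in other kinds. All but Timd4 climb at each step from 1 to 3 markers, and Pf4 stays at 3718 CPM or more from 3 markers on.

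Single resident macrophages held most of these genes together. The median was 7 of the 10 genes per resident macrophage, against 3 in AIR and cavity macrophage-like cells, 2 in cDC2-like cells and 1 in monocyte-like and cDC1-like cells. It was also 7 in the 24 cells that tied between gates, and 5 in the 188 that met none. Lyve1, Folr2 and Cd163 were found together in 71.3% of the 764 cells, in 12% of AIR macrophage-like cells, in 3.78% of cavity macrophage-like cells, and in 0 monocyte-like or dendritic cells. Cells of tied gates held all 3 in 58.3% and cells of no gate in 30.9%, so the combination was not confined to the resident gate. The share in resident macrophages was 62.2% after thinning to 5000 UMIs. Of cells with Lyve1, 97.2% also held Folr2, and of the 83 cells without Lyve1, 71.1% did. Cells with Timd4 held Lyve1 in 96.7%, those without it in 81.3%, and after thinning these shares were 93.6% and 79.1%. Timd4 was more frequent in cells with Vsig4: 71.7% of the 92 cells with Vsig4 held Timd4, against 48.1% of the other 672, and 54.0% against 37.1% after thinning. Cd163 was found about as often with Timd4 (82.3%) as without it (78.9%). These are shares of cells within pools and carry no test over mice.

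Resident macrophages with and without 3 of the receptors were compared for H2-Aa, H2-Eb1, Cd74, Ccr2 and Cd209f, which were chosen after their values were seen, so no test is given. H2-Aa encodes an MHC class II chain, and in resident macrophages with at least 2 Lyve1 UMIs (623 cells) the median was 10.1 H2-Aa UMIs per 10000, and in the 83 cells without Lyve1 it was 83.4. For Timd4 the medians were 7.28 (243 cells) and 32.0 (375 cells), and for Vsig4 0.863 (56 cells) and 21.6 (672 cells). For each of the 3 receptors the H2-Aa median was lower in the cells that held the receptor in all 4 libraries, with 102 against 15.9 for Lyve1 in the normocholesterolemic Nrf2flox/flox library as the widest gap and 26.1 against 19.2 for Timd4 in the atherosclerotic Nrf2flox/flox library as the narrowest in ratio. The median of Cd74, the invariant chain, was likewise lower in all 12 of these comparisons. That of H2-Eb1, another MHC class II chain, was lower in 11, the exception being Timd4 in the atherosclerotic Nrf2flox/flox library, with 14.3 UMIs per 10000 in cells that held Timd4 and 13.9 in those that did not. Some of these classes were small, down to 3 cells without Lyve1 in that library. Ccr2, the receptor that draws monocytes into tissue, was found in 3.29% of cells with at least 2 Timd4 UMIs and in 15.5% of those with none, a difference of the same direction in all 4 libraries. For Lyve1 the shares were 7.54% and 24.1%, but in both libraries labelled Nrf2Cdh5tKO they were close, at 4.52% and 4.55%, and at 10.1% and 11.8%. For Vsig4 they were 3.57% and 9.97%, with 11.1% and 10.1% in the library labelled atherosclerotic Nrf2Cdh5tKO. The gate marker Cd209f went with Timd4 (46.5% against 29.3%) and not with Vsig4 (21.4% against 36.8%). Cells with 2 or more Timd4 UMIs were deeper, with a median of 9981 UMIs against 8192, and the part of depth in these differences was not tested.

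**Figure D3:**
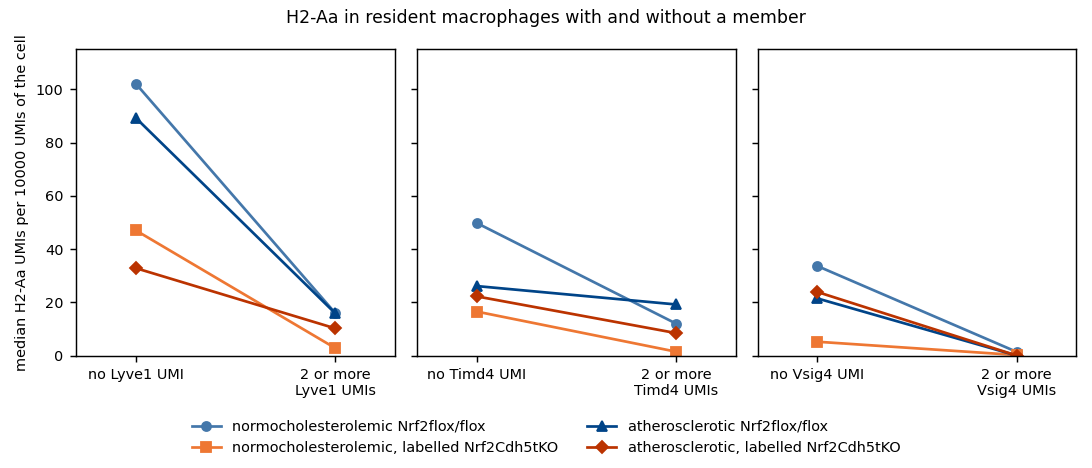
Median H2-Aa UMIs per 10000 UMIs of a cell (y axis) in resident macrophages with no UMI and with 2 or more UMIs of Lyve1, Timd4 or Vsig4 (x axis), 1 line per library. In all 12 lines the right point is lower than the left.

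Each group was 1 library, so 1 library was set against 1 with no test, and a log2 ratio of at least 1 in either direction was taken as past the fold. Between the atherosclerotic and normocholesterolemic Nrf2flox/flox libraries 2 of 9 genes were past it, where 17.6% of 6849 genes were. Cd163 was 2.07-fold (log2 1.05, 95% interval 0.90 to 1.19) and Stab1 2.04-fold (log2 1.03, 0.83 to 1.22) higher in the atherosclerotic library, whose all-gene median was itself shifted by 0.18. Mrc1 (0.80), F13a1 (0.52), Timd4 (0.51, interval 0.13 to 0.87) and Lyve1 (0.40, interval 0.26 to 0.54) were higher too, Folr2 (-0.32) and Pf4 (-0.72) lower. The interval for Vsig4, -0.28 to 1.11, held 0. All these intervals cover counting error only, not the spread between cells or mice. In the same comparison of the libraries labelled Nrf2Cdh5tKO, 0 of 9 genes were past the fold (2.98% of 5908 genes, with an all-gene median of -0.11), Cd163 was again higher (0.47), and Mrc1 (-0.26), Stab1 (-0.34), F13a1 (-0.40) and Pf4 (0.46) had the opposite sign, with intervals that left out 0 in both comparisons. Folr2 also had the opposite sign (0.03), with an interval that held 0. The interval for Lyve1 under that label, -0.03 to 0.18 around 0.07, held 0.

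Between the genotype labels 0 of 9 genes were past the fold in the normocholesterolemic libraries (7.14% of 7642 genes) and 0 of 9 in the atherosclerotic ones (6.29% of 4025). In the normocholesterolemic pair Pf4 was lower in the library labelled Nrf2Cdh5tKO (log2 ratio -0.80, interval -0.84 to -0.75), while Vsig4 (0.82), F13a1 (0.58) and Stab1 (0.46) were higher, with an all-gene median of 0.20. For Vsig4 the ratio rests on few cells. Under that label 17 of 197 resident macrophages (8.63%) held it, against 51 of 381 (13.4%) with Nrf2flox/flox. The sign for Vsig4 turned with 1 more gate marker. In the atherosclerotic pair Stab1 (-0.90, interval -1.12 to -0.67), Mrc1 (-0.76), Cd163 (-0.33), F13a1 (-0.34) and Lyve1 (-0.25, interval -0.40 to -0.10) were lower in the library labelled Nrf2Cdh5tKO and Pf4 was higher (0.38), with an all-gene median of -0.096. Both comparisons share libraries with those of atherosclerotic against normocholesterolemic mice. These mice differed in diet and in a further treatment not reported here. The resident gate uses Hmox1, which the study names as a gene regulated by Nrf2. With Hmox1 left out, 241, 125, 40 and 87 cells met the gate, and the ratios were not computed for these cells. Other values moved among the resident macrophages of the 4 libraries: the 7 fibroblast markers summed to 1146, 912, 621 and 654 CPM with 0 of them at 0, the 5 dividing-cell markers to 168, 233, 13.8 and 220.1 CPM, and the median depth was 9915, 7374, 6418 and 7997 UMIs. The median mitochondrial share was 2.10%, 3.43%, 3.06% and 2.53%, an order opposite to that of Pf4 and the same as that of F13a1. Their part in the ratios was not tested. The 7 platelet markers summed to 6.06, 4.37, 2.76 and 3.59 CPM, with 3 to 6 of them at 0, beside Pf4 levels of 2890.2 CPM and more. Outside the resident gate the mix of kinds differed as well, with monocyte-like cells making up 6.35%, 5.49%, 17.4% and 6.83% of phagocytes and resident macrophages 48.4%, 60.1%, 34.7% and 46.4%.

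**Figure D4:**
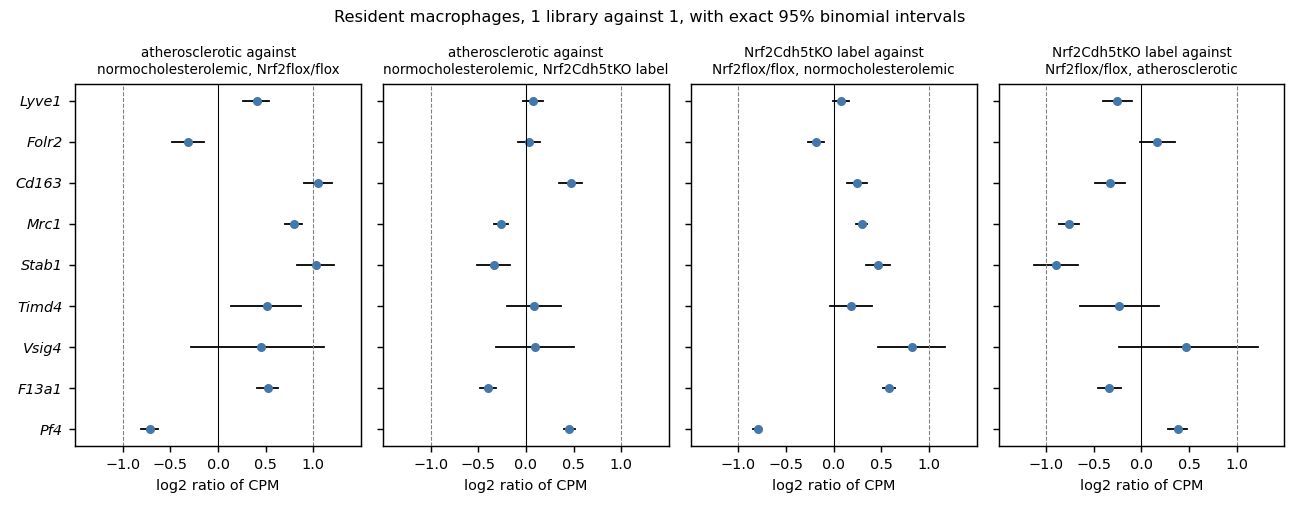
Log2 ratio of the level in resident macrophages (x axis) for 9 genes (y axis) in 4 comparisons of 1 library with 1, with bars for the exact 95% binomial interval and dashed lines at the fold used. Cd163 (1.05) and Stab1 (1.03) lie past the line in the first panel, which compares the Nrf2flox/flox libraries. Mrc1, Stab1, F13a1 and Pf4 change sign between the first and second panels, with intervals clear of 0 in both. Folr2 changes sign with an interval that holds 0 in the second.

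Other scavenger receptors gave mixed results. Of 21 further genes of uptake receptors, 9 could be tested, of which 4 were called higher in resident macrophages and 2 lower by edgeR, beside 17.5% and 18.6% of all tested genes, with a median log2 fold of 0.24. Colec12, a collectin receptor (log2 fold 2.77, SE 0.19), Cd36, a receptor of oxidised lipoproteins (1.40, SE 0.17), and Msr1, the class A scavenger receptor (1.17, SE 0.14), were higher, as was Cd68 (0.43, SE 0.13), which is also a phagocyte gate marker. Scarb1, the receptor of high-density lipoprotein, was lower (-1.57, SE 0.25), and so was Lrp1 (-0.42, SE 0.13). Scara5, Scarb2 and Cxcl16 were not called, and Clec7a was not matched by symbol. Colec12 stood at 110.1 CPM in resident macrophages and 14.7 CPM in the other phagocytes.

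Genes that work with the 9 were also mixed, 5 of 11 tested being called higher and 5 lower, of 16 listed, beside 17.5% and 18.6% of all tested genes. The 5 higher include Hmox1, haem oxygenase (1.94, SE 0.22), a resident gate marker whose call was set by the gate. Of the other genes of haem handling that follow CD163, Slc40a1, the iron exporter (log2 fold 2.92, SE 0.33), and Blvrb, a biliverdin reductase (1.70, SE 0.16), were higher. C3ar1, the receptor of the C3a fragment, was higher (1.5, SE 0.18) and C3 lower (-0.74, SE 0.23). Among the genes of apoptotic cell uptake, Mertk was higher (1.80, SE 0.19), whereas Havcr2, a phosphatidylserine receptor related to Timd4, was lower (-4.31, SE 0.24), at 2.84 CPM against 53.5 in the other phagocytes, as was Axl (-0.72, SE 0.16). Cd44, a second hyaluronan receptor beside Lyve1, was lower (-1.96, SE 0.15), and Tgm2, a second transglutaminase beside F13a1, was lower (-3.16, SE 0.30). Hmmr, a further hyaluronan receptor, was not called (-0.52, SE 0.36).

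The genes most like each member were found by Pearson correlation of log2(CPM + 10) over 38 sums from 12 cell kinds, which share 4 libraries and are not independent, so no p is given. Members, gate markers and genes with under 50 UMIs in those sums were left out of this search. The closest of the remaining genes were Pla2g2d for Lyve1 (r = 0.97) and Vsig4 (0.93), and Ltc4s for Folr2 (0.96). Hrh1 was closest for Cd163 (0.96) and Timd4 (0.94), Mgl2 for Mrc1 (0.97) and Trpv4 for Stab1 (0.92). For F13a1 it was Ptpro (0.96) and for Pf4 C3ar1 (0.97). A member was closer than these for Folr2 (Pf4, 0.963), Timd4 (Lyve1, 0.946) and Vsig4 (Lyve1, 0.942). Among the members the closest pairs were Folr2 with Pf4 (0.96), Cd163 with Mrc1 (0.96) and Lyve1 with Folr2 (0.95), and the least alike were Stab1 and F13a1 (0.57). Each sum needed at least 20 cells, so cDC1-like cells, which held Timd4 with few UMIs of the other receptors, entered none of these correlations.

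Outside the phagocytes, Stab1 was found in endothelial cells and Lyve1 in a few lymphatic ones. Stab1 stood at 102, 143, 299 and 170 CPM in 160 endothelial-like cells, and 45.6% of them held it (25% with at least 2 UMIs), against 2.67% of fibroblast-like and 2.60% of smooth muscle-like cells, which were deeper (medians of 13279 and 15637 UMIs against 5898.5). Lyve1 was held by 6.25% of the endothelial-like cells, and by 1.25% with at least 2 UMIs. Its share was 6.97% in smooth muscle-like and 3.28% in fibroblast-like cells. In thymocyte-like cells it was 3.61%, in B cells 3.23% and in T or NK cells 2.24%. Whether the endothelial share lay above background was not tested. Only 7 cells met a lymphatic gate of at least 2 of Prox1, Flt4, Mmrn1, Ccl21a and Reln with at least 3 of 7 endothelial markers, all in the normocholesterolemic libraries. Lyve1 was held by 4 of them, with 7, 18, 5 and 1 UMIs, and Stab1 by 3, with 1, 8 and 4 UMIs, while Folr2, Cd163, Timd4, Vsig4 and Pf4 had 0 UMIs in all 7. These cells held 0.322% of the Lyve1 UMIs, so the cells that met this gate made up little of the Lyve1 signal. Lymphatic cells that missed the gate are not in this share.

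Pf4 and F13a1 were found in platelet-like and thymocyte-like barcodes, respectively. The 12 platelet- or megakaryocyte-like barcodes all held Pf4, with a median of 20 and up to 43 UMIs at a median depth of 1054.5 UMIs, and stood at 8667 CPM. They made up 0.511% of the Pf4 UMIs in kept cells. F13a1, which platelets are also known to carry, was at 1 UMI in 2 of the 12. In thymocyte-like cells F13a1 was at 17.3, 32.9, 32.9 and 36.0 CPM, in 22.2% of 499 cells (95% interval 18.7 to 26.2), against 7.76% of T or NK cells at almost the same median depth (7189 and 7186 UMIs), 5.07% of B cells and 5.37% of fibroblast-like cells. At least 2 UMIs were found in 5.61% of thymocyte-like cells, with 5 as the most. Background of Pf4 was wide: 27.0% of fibroblast-like and 29.8% of smooth muscle-like cells held a UMI, at 26.5 and 26.1 CPM, so shares near these say nothing of expression. A further 213 barcodes met the phagocyte gate together with markers of another lineage, of which 83 were called doublets; they held 6.74% of the Lyve1 UMIs and were left out.

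**Figure D5:**
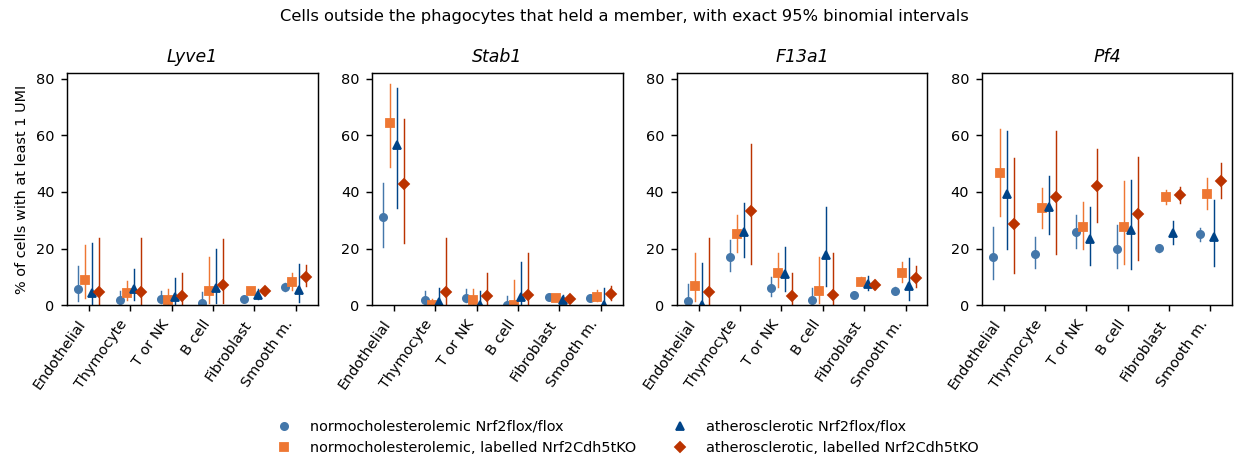
Share of cells with at least 1 UMI (y axis, percent) of Lyve1, Stab1, F13a1 and Pf4 in 6 kinds of cells outside the phagocytes (x axis), 1 point per library with the exact 95% binomial interval. Stab1 stands out in endothelial-like cells and F13a1 in thymocyte-like cells, while Lyve1 stays low and Pf4 is spread over all 6 kinds.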

How the data were processed

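The authors sequenced cells on the 10x Genomics platform and, per the labels, made the deposited UMI counts per gene and cell with Cell Ranger 6.1.2 on mm10. The study's limits were applied again: 200 to 6000 genes per barcode, and no more than 15% of UMIs from mitochondrial genes. Cells were placed by counts of detected markers: phagocytes needed 8 of 12 markers, 2000 UMIs and at most 100 UMIs per 10000 of stromal markers, and a kind needed 3 of 6 (resident), 4 of 5 (cavity, cDC1), 4 of 6 (AIR, cDC2) or 4 of 8 (monocyte) markers, the highest fraction deciding. Cells with fewer than 8 of the 12 were also counted as phagocytes where they met the cDC1 or cDC2 gate and the other limits. The list of proinflammatory macrophages was not used as a kind. Its markers were found in all kinds, but so were those of the cavity list, which was used. Their sum was highest in AIR macrophage-like cells (2931 CPM), then in cells of tied gates (2469) and of no gate (2227). Counts were summed by kind and library and tested with edgeR 4.0.16 (R 4.3.3, glmQLFTest after filterByExpr and TMM), with DESeq2 1.42.0 as an alternative. The edgeR fit was also run on simulated counts. In these the libraries differed only in depth, so that run did not test the library block. Levels have exact Poisson and shares exact Clopper-Pearson intervals (95%, scipy 1.17.1). Library ratios used genes with at least 50 UMIs in both libraries together. Scrublet in scanpy 1.11.5 called 190, 64, 10 and 42 doublets, which were kept in the main results. Named genes were the 10 members, 21 further uptake receptors, 16 partner genes and the 3 most similar genes per member (sums of at least 20 cells), of which the closest is printed. Members and gate markers were left out of the search for similar genes. A further treatment of the atherosclerotic mice is not reported here. The members, lists and gates were chosen with earlier results of these data known. Other alternatives were another normalization, filter, block, gate, mitochondrial limit, reference or left-out library, and for levels and ratios the mean over cells.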

Additional observations from a re-analysis of the deposited data

Results flagged for a closer look

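In resident macrophages 4 genes had ratios of atherosclerotic to normocholesterolemic libraries of opposite sign under the 2 genotype labels. Their intervals left out 0 in both. Folr2 also differed in sign (-0.32 and 0.03), but its second interval held 0. The log2 ratio of the atherosclerotic to the normocholesterolemic library was 0.80 for Mrc1 with Nrf2flox/flox and -0.26 with the Nrf2Cdh5tKO label, 1.03 and -0.34 for Stab1, 0.52 and -0.40 for F13a1, and -0.72 and 0.46 for Pf4. With 1 library per group these differences were not tested, and the atherosclerotic Nrf2flox/flox library held 50 resident macrophages.

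Pf4 was also found at 494 CPM in the 1111 barcodes under 2000 UMIs that no comparison uses, in 307 of them. Of their 614 Pf4 UMIs, 462 lay in the 372 barcodes with at least 3 UMIs of the C1q genes and Lyz2, and 3 in the 16 barcodes with a UMI of a platelet marker. Fibroblast-like cells stood at 26.5 CPM, but at a median depth of 13279 UMIs against 1057 in these barcodes. The share with a Pf4 UMI was close, at 27.6% of these barcodes and 27.0% of fibroblast-like cells. The part of depth and background in the 494 CPM was not tested.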

How the results depend on the processing

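The 9 genes higher in resident macrophages stayed called under all 14 alternatives run, 1 of them (cells of no gate or tied gates left out of the reference) chosen after seeing the data and another the fit with no library block; the block is the pool the 2 sums share, and dropping it changed no call among the 9. Log2 folds ranged from 2.77 to 5.79 for Lyve1, from 1.67 to 4.44 for Vsig4 and from 1.41 to 2.62 for Pf4, and without each library in turn from 3.45 to 4.31 for Lyve1 and from 2.72 to 4.44 for Vsig4. Calls over all genes depended more on the setting: 1502 higher by edgeR against 960 with DESeq2 (7.78% of 12336, with 1394 lower). Without TMM 2145 were higher and 1227 lower (25% and 14.3%), and 1017 were higher without the normocholesterolemic Nrf2flox/flox library. The ratios between libraries were the least steady in sign, and levels moved too. With the mean over cells in place of summed UMIs, 7 of 9 resident levels and 8 of 36 ratios left their main intervals. With 1 more gate marker, 1 gene was past the fold between atherosclerotic and normocholesterolemic libraries in each genotype label (Cd163, and Vsig4 under the Nrf2Cdh5tKO label). Between the normocholesterolemic libraries 1 was (Pf4), and Vsig4 turned to -0.39 there. Over all phagocytes Folr2 and Pf4 were past the fold between the Nrf2flox/flox libraries, both lower in the atherosclerotic library. Pf4 stood at 1048 CPM there and at 2618 in the normocholesterolemic library. Cd163 and Stab1 were then no longer past it. Between the atherosclerotic libraries 1 gene (Vsig4) was past the fold over all phagocytes. In that setting the sign turned between the Nrf2flox/flox libraries in Lyve1 (-0.54), Timd4 (-0.0067) and F13a1 (-0.16). It turned between the libraries labelled Nrf2Cdh5tKO in Pf4 (-0.12) and between the normocholesterolemic libraries in Folr2 (0.20). Between the atherosclerotic libraries it turned in Lyve1 (0.47), Cd163 (0.43) and F13a1 (0.16). The cells compared then include all kinds. Joint detection of Lyve1, Folr2 and Cd163 was 62.2% after thinning and 78.7% with 1 more gate marker. With at least 2 UMIs required, Stab1 was held by 25% of endothelial-like and F13a1 by 5.61% of thymocyte-like cells. Pools of 1 library per group, with 50 resident macrophages in the smallest, limit what the ratios can show.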

Other observations

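Genes that led the resident gate beside its own markers included some carried by few cells. Of the 252 Ifnb1 UMIs in resident macrophages 250 lay in 1 cell, so its high ratio describes that cell. Myl7 had 217 UMIs in 26 cells, with 107 in the highest cell and 56 in the second. Cd209b (520 UMIs in 122 cells) and C6 (138 UMIs in 69 cells) were spread more widely. These genes were chosen after their values were seen.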
